A study of Arabidopsis thaliana with 6 samples.

Results

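The genes described here are 39 Arabidopsis loci of 3 auxin response families, taken by locus identifier: 29 Aux/IAA genes (IAA1 to IAA20 and IAA26 to IAA34), 8 GH3 genes (GH3.1 to GH3.6, GH3.9 and GH3.17) and the LBD genes LBD16 and LBD29. Of these, 37 had a row among the 24438 genes of the deposited table, and IAA15 (AT1G80390) and GH3.4 (AT1G59500) had none and count as not detected. RNA sequencing gave their levels in 6 root libraries of wild-type Columbia plants in the vegetative stage. Each of 3 groups had 2 libraries: control plants, plants given aluminium oxide nanoparticles (nAl2O3) and plants given aluminium as an ion (ion Al). The second nanoparticle library is spelled nAl2O4 in its other labels and was grouped by its title. The sources used here do not give doses, exposure times or the growth medium. Whether the pair of libraries in a group stands for separate plants or cultures is not stated, so a p-value here rests on the spread within such pairs alone, and that spread may be technical. The comparisons place the particulate and the dissolved form of aluminium beside untreated roots and beside each other.

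Auxin is the hormone that sets root growth, lateral root formation and root hair growth. Aux/IAA proteins repress transcription by binding ARF transcription factors and bringing in the co-repressor TOPLESS. Auxin ties them through a short degron to the TIR1/AFB receptors, which mark them for destruction and so free the ARFs. Many Aux/IAA and GH3 genes are themselves switched on by ARFs, which makes them common readouts of auxin signalling. GH3 enzymes join auxin to amino acids and lower its free pool, and LBD16 and LBD29 act downstream of ARFs at the start of a lateral root.

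The bases upstream of a gene are where ARFs can bind, so the 250 bases before each annotated gene start were searched on both strands for TGTCTC, the first described auxin response element, and TGTCGG, a form that ARFs bind more tightly. Coordinates and sequence are those of the RefSeq annotation of TAIR10.1. TGTCTC lay in the windows of 12 of the 39 loci (30.8%), against 3004 of 27443 protein-coding genes (10.9%). TGTCGG lay in 6 windows (15.4%), against 1142 (4.16%), and 1 or the other in 16 (41%), against 4027 (14.7%). A match is a description of the letters and not a shown binding site. The windows of 5 genes are printed 5′ to 3′ on the strand of the gene, ending at the base before the annotated start, with each motif in capitals; GAGACA and CCGACA are TGTCTC and TGTCGG read on the other strand. IAA1 and IAA20 are shown because their transcripts differed between groups and their windows hold a motif, GH3.17 because it differed and holds none, and IAA6 and IAA19 because they share the longest run of bases.
IAA1, chr4:8360746-8360995, plus strand: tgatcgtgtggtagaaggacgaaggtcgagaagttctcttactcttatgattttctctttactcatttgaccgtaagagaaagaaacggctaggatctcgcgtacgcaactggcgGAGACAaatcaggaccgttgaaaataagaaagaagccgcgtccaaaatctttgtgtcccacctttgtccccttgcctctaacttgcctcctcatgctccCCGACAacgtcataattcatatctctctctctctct
IAA20, chr2:19307464-19307713, plus strand: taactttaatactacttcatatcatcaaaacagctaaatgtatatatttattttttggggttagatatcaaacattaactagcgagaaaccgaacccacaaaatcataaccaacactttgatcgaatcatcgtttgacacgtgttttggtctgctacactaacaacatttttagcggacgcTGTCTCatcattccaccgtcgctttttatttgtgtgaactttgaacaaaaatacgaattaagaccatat
IAA19, chr3:5263751-5264000, plus strand: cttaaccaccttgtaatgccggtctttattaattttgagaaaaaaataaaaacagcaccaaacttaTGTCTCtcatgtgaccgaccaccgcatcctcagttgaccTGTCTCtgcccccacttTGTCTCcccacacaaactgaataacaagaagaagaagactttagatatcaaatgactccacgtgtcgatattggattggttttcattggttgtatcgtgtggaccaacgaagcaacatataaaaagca
IAA6, chr1:19673653-19673902, minus strand: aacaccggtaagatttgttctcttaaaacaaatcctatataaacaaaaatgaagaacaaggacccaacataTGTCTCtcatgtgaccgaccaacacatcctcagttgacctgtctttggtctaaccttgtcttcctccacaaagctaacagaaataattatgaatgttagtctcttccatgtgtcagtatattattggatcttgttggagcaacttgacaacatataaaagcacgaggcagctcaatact
GH3.17, chr1:9824919-9825168, plus strand: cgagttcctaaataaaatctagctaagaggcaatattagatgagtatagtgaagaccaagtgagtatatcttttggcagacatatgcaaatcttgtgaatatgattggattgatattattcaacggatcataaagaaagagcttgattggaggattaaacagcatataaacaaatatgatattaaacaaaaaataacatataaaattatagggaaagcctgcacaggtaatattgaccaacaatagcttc

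Among all 741 pairs of the 39 windows, the longest stretch of identical bases joined IAA6 and IAA19, where 23 bases read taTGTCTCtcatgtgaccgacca and began 181 and 186 bases before the 2 gene starts. This run holds TGTCTC. IAA19 held 3 copies of TGTCTC, more than the 1 copy of IAA1, IAA6 and IAA20. The windows of GH3.1, GH3.6 and IAA29, which also differed between groups, held neither motif. Against control, 2 of 13 tested loci with a motif and 3 of 19 without passed in ion-treated roots, where 22.6% of all genes did. Against nanoparticle-treated roots 3 of 13 and 2 of 19 passed, where 25.3% of all genes did. These shares were not tested against each other.

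Levels are RPKM, reads scaled to gene length and library total, so they can be set side by side between genes. Each library held 12318429 to 14489392 reads, recovered from the steps of the RPKM values, and at a length of 1 kilobase 3 reads make an RPKM of 0.207 to 0.244. Across all genes the control libraries differed more from each other (median absolute log2 difference 0.364) than the nanoparticle (0.1346) and ion libraries (0.2261). Among the 32 tested loci the medians were 0.2354, 0.1146 and 0.3532, so these loci spread most between the ion libraries. Root genes such as the endodermal gene CASP1 and the root regulators SHR and SCR were present in every library. Of the shoot markers, the meristem gene STM was at or near 0, but others were not. RBCS1A was at 27.6 and 39.1 in control, 7.42 and 34.5 in nanoparticle and 4.51 and 5.75 RPKM in ion libraries. CAB1 was at 40.1 and 40.9, 14.2 and 55.4, and 11.6 and 9.68 in the same order.

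Aux/IAA transcripts were dominated by a few genes. IAA9 was the highest, at 250 and 306 RPKM in control, 222 and 236 in nanoparticle and 257 and 267 in ion libraries. IAA16 (mean of all 6 libraries 196), IAA2 (146) and IAA28 (118) followed. In both ion libraries IAA2 (153 and 163) stood above IAA16 (123 and 156). IAA9, IAA16 and IAA2 together made up 46.05% to 56.85% of the summed Aux/IAA level in the 6 libraries. The lowest IAA28 library, at 89.8, stood above the highest library of IAA8, the next gene in order, at 83.1. From IAA8 down to IAA5, each gene's range over the 6 libraries overlapped that of the next gene, although some neighbours kept their order within every library, such as IAA12 above IAA18. At the low end were IAA31 (0.194 to 1.04), IAA32 (0 to 0.474) and IAA5 (0 to 0.452), the last with at most 4 reads in any library.

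The summed Aux/IAA level was 1217.8 ± 73.7 in control, 1207.6 ± 45.2 in nanoparticle and 1187.61 ± 122 RPKM in ion libraries (mean ± SD, n = 2 each). The differences between groups were smaller than the spread within them, and the Aux/IAA genes that passed in a comparison add little to that sum. Among the genes that add much to it, mean IAA16 was 228 RPKM in control and 139.5 in ion libraries. Mean IAA28 was 93.3 and 135 in the same order, and neither difference passed. The summed GH3 level was 85.4 and 66.0 in control, 96.4 and 101 in nanoparticle and 55.4 and 69.7 RPKM in ion libraries. Both nanoparticle libraries stood above the other 4, while control and ion libraries overlapped.

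**Figure D1:**
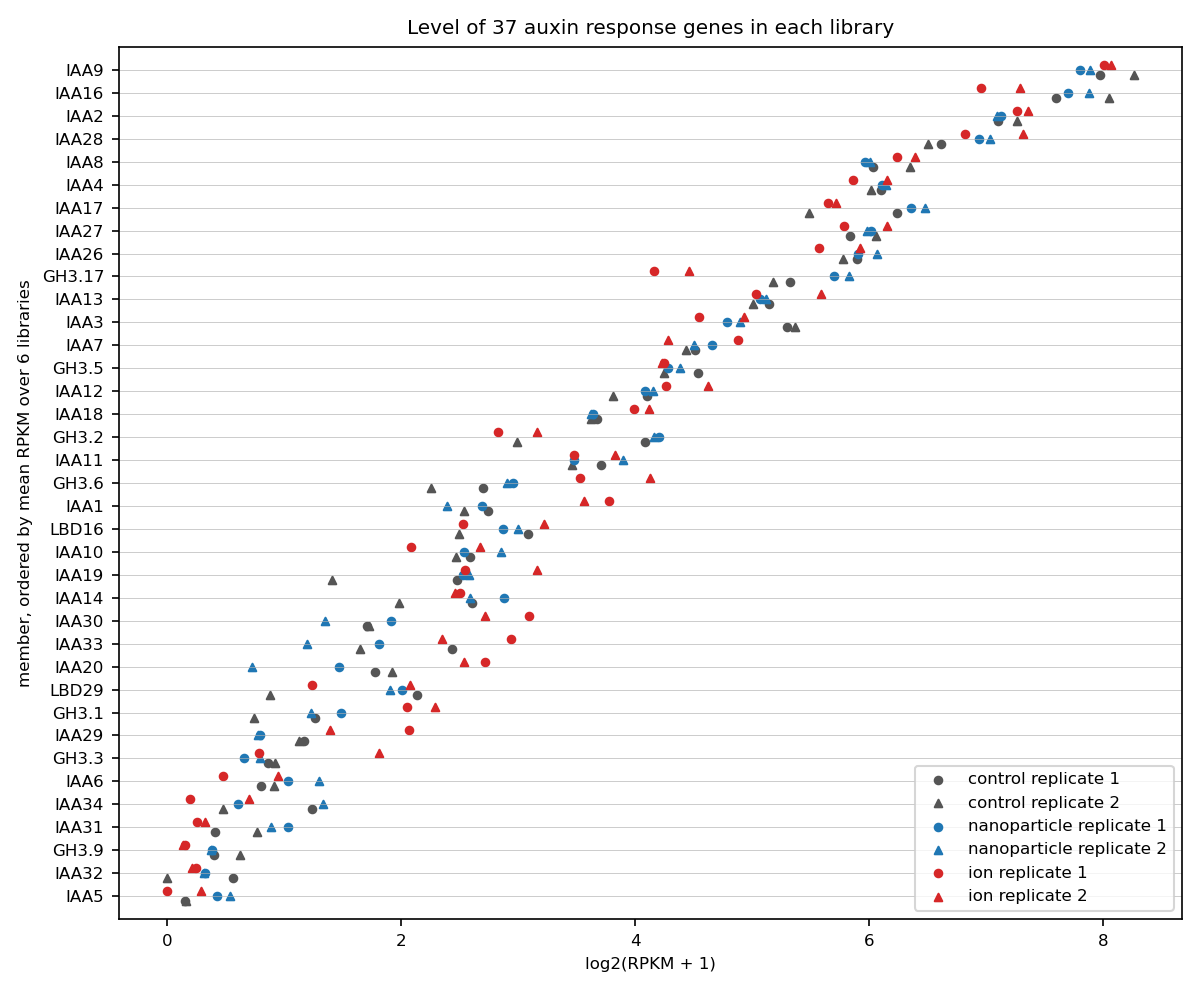
Level of each of the 37 loci with a row in the table, as log2(RPKM + 1), in the 2 control, 2 nanoparticle and 2 ion libraries, ordered by mean RPKM. IAA9 is at the top in all 6 libraries, while IAA1, IAA30, GH3.1 and GH3.6 are higher in both ion libraries and GH3.17 is lower.

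Ion-treated roots differed from control in 5 of the 32 loci that could be tested. Transcripts of IAA1 (AT4G14560), IAA30 (AT3G62100), GH3.1 (AT2G14960) and GH3.6 (AT5G54510) rose 2.24- to 3.38-fold and GH3.17 (AT1G28130) fell 1.96-fold. The test was limma on log2(RPKM + 1), with Benjamini-Hochberg adjusted p under 0.05 over 19648 genes. Over all of these genes, 22.6% passed in this comparison, 12.3% higher and 10.3% lower, so 5 of 32 (15.62%) is not above the background. The median log2 fold change was 0.1149 over the 32 loci and 0.0622 over all genes. Both ion libraries stood above both control libraries in 10 of the 32 loci and below in 4, against 34% and 27.7% of all genes, and 10 had an unadjusted p under 0.05, against 37.9%. Leaving out control replicate 1 gave 9 passing loci, where 39.8% of all genes passed, and leaving out an ion library gave 1, where 9.63% and 8.5% did. IAA5, IAA31, IAA32, GH3.3 and GH3.9 were too low to test, since the filter asked for an RPKM of at least 1 in 2 libraries. IAA6 passed this filter only through the nanoparticle libraries.

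IAA1 encodes a repressor with a degron, and its transcript is known to rise quickly after auxin is added. Its level was 5.69 and 4.80 in control, 5.46 and 4.24 in nanoparticle and 12.7 and 10.8 RPKM in ion libraries. Both ion libraries stood clear of the other 4. Its mean rose from 5.25 ± 0.628 in control to 11.8 ± 1.34 (SD, n = 2), a log2 fold change of 1.03 ± 0.21 (standard error, limma adjusted p = 0.016). Without ion replicate 1 the change was 0.92 and without ion replicate 2 it was 1.14, and neither passed.

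IAA30 and IAA20 encode closely related repressors that lack the degron and are known to be long-lived. IAA30 stood at 2.27 and 2.30 in control, 2.78 and 1.55 in nanoparticle and 7.55 and 5.57 RPKM in ion libraries, from 16 to 68 reads. The ion libraries again lay above all others. The rise over control was 2.87-fold, with a log2 fold change of 1.19 ± 0.27 (limma adjusted p = 0.021). Without ion replicate 1 it was 1.0 and without ion replicate 2 it was 1.38, and neither passed. IAA20 was at 2.42 and 2.79 in control, 1.77 and 0.650 in nanoparticle and 5.58 and 4.82 RPKM in ion libraries. The 3 groups did not overlap, with ion highest and nanoparticle lowest. The difference of IAA20 between ion and control, 0.78 ± 0.29 on the log2 scale, did not pass (limma adjusted p = 0.0949).

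GH3.6, also known as DFL1, and GH3.1 belong to the auxin-conjugating GH3 enzymes, and their transcripts are known to be induced by auxin. GH3.6 was at 5.51 and 3.79 in control, 6.75 and 6.47 in nanoparticle and 10.5 and 16.4 RPKM in ion libraries. The 3 groups did not overlap and stood in that order. The rise over control was 2.9-fold (log2 fold change 1.35 ± 0.27, limma adjusted p = 0.0143), and without ion replicate 2 it was 1.05 and did not pass. GH3.1 was at 1.41 and 0.674 in control, 1.79 and 1.34 in nanoparticle and 3.15 and 3.88 RPKM in ion libraries, from 19 to 114 reads. Both ion libraries lay above the other 4, while control and nanoparticle libraries overlapped. The rise over control was 3.38-fold (log2 fold change 1.17 ± 0.26, limma adjusted p = 0.0216). It was 0.90 when control replicate 2 was left out, 1.28 when ion replicate 1 was and 1.05 when ion replicate 2 was, and passed in none of these.

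GH3.17, which prefers to join auxin to glutamate, moved the other way. Among the GH3 loci described here, it was the most abundant transcript in 5 of the 6 libraries. In ion replicate 1, GH3.5 stood above it. It was at 39.1 and 35.2 in control, 51.1 and 55.6 in nanoparticle and 16.8 and 21.0 RPKM in ion libraries. The 3 groups did not overlap, with nanoparticle highest and ion lowest. It fell 1.96-fold in ion-treated roots against control (log2 fold change -0.94 ± 0.19, limma adjusted p = 0.0138), and without ion replicate 1 the change was -0.79 and did not pass. Its share of the summed GH3 level was 45.82% and 53.33% in control, 53% and 54.98% in nanoparticle and 30.41% and 30.18% in ion libraries. The share of GH3.6 was 6.448% and 5.733%, 6.999% and 6.396%, and 19.02% and 23.59% in the same order. The enzyme transcripts of ion-treated roots therefore held less GH3.17 and more GH3.6 per unit of summed level.

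**Figure D2:**
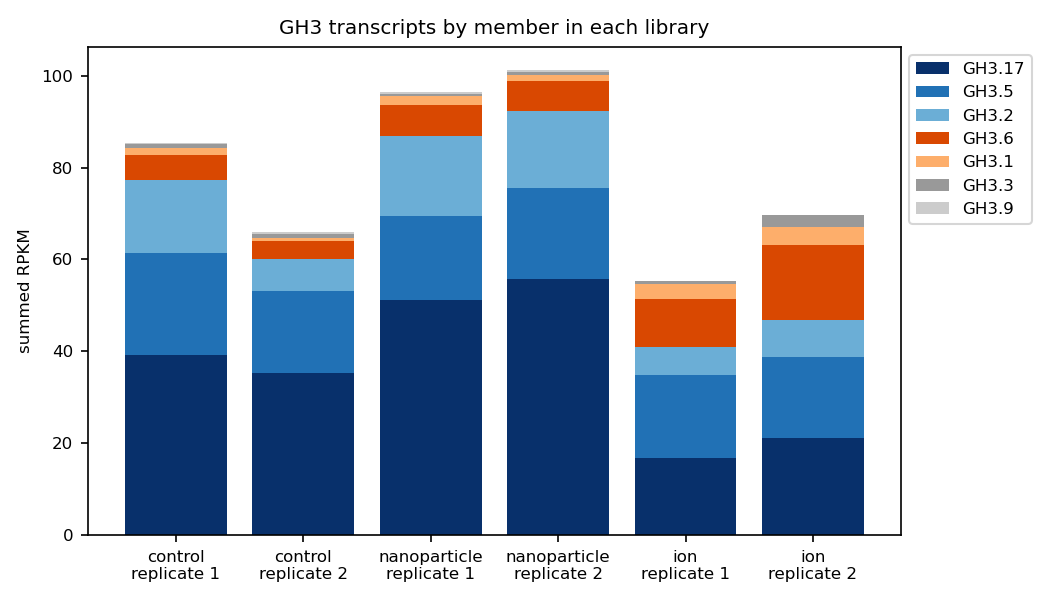
Summed RPKM of the 7 GH3 loci in each of the 6 libraries, with each bar divided by gene. GH3.17 takes 45.82% to 54.98% of the bar in control and nanoparticle libraries and about 30% in the 2 ion libraries, where GH3.6 takes 19.02% and 23.59%.

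The other GH3 genes did not pass against control. GH3.5, an enzyme that can also act on salicylic acid, was at 22.3 and 18 in control, 18.5 and 19.9 in nanoparticle and 17.9 and 17.8 RPKM in ion libraries. GH3.2 was at 15.9 and 6.93 in control, 17.4 and 16.8 in nanoparticle and 6.10 and 7.93 in ion libraries. Its 2 control libraries lay on different sides: control replicate 1 was near the nanoparticle libraries and control replicate 2 between the ion libraries. The log2 difference of GH3.2 between ion and control was -0.54 ± 0.35 (limma adjusted p = 0.306), and it passed at -1.09 without control replicate 2. GH3.3 was at 0.582 to 0.897 in 5 libraries and 2.52 in ion replicate 2. GH3.9 was at 0.320 and 0.542 in control, 0.303 and 0.296 in nanoparticle and 0.113 and 0.0977 RPKM in ion libraries, from 3 reads in each ion library.

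Of the remaining Aux/IAA genes, several had both ion libraries clear of both control libraries without passing. IAA16 was at 192 and 264 in control, 207 and 234 in nanoparticle and 123 and 156 RPKM in ion libraries, with both ion libraries below the other 4. The log2 difference from control was -0.70 ± 0.25 (limma adjusted p = 0.0855). IAA3, the repressor SHY2 that restrains the root meristem, was at 38.4 and 40.3 in control, 26.6 and 28.7 in nanoparticle and 22.4 and 29.5 RPKM in ion libraries. Both control libraries lay above the other 4, and the log2 difference between ion and control was -0.59 ± 0.19 (limma adjusted p = 0.0683). It passed with median-of-ratios scaling, at -0.66. IAA28, a repressor of lateral root initiation, was at 96.8 and 89.8 in control, 122 and 130 in nanoparticle and 112 and 158 RPKM in ion libraries, with control below both treatments. The differences of IAA28 were 0.51 ± 0.22 for ion and 0.43 ± 0.22 for nanoparticle on the log2 scale (limma adjusted p = 0.143 and 0.595).

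IAA12 (BODENLOS, which restrains the ARF MONOPTEROS) was at 16.1 and 13 in control, 15.9 and 16.8 in nanoparticle and 18.3 and 23.6 RPKM in ion libraries. IAA18 was at 11.8 and 11.3, 11.5 and 11.3, and 14.9 and 16.3 in the same order. Both genes were highest in the ion libraries, by 0.49 ± 0.21 and 0.41 ± 0.17 over control on the log2 scale (limma adjusted p = 0.129 and 0.132). IAA19, known from hypocotyl bending and carrying 3 TGTCTC copies, was at 4.55 and 1.66 in control, 4.78 and 4.97 in nanoparticle and 4.85 and 7.96 RPKM in ion libraries. Control replicate 2 was the low library. Without control replicate 1, IAA19, IAA12, IAA16 and IAA3 passed as well, at 1.45, 0.64, -0.92 and -0.63, in a fit where 4338 genes were higher and 3435 lower. Without control replicate 2, IAA17 (AXR3) passed at -0.55.

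The other Aux/IAA genes gave smaller differences. IAA2 was at 136 and 153 in control, 139 and 135 in nanoparticle and 153 and 163 RPKM in ion libraries. IAA27 was at 56.2 and 65.7, 63.7 and 62.2, and 54.2 and 70.1, and IAA4 at 67.7 and 63.6, 68.1 and 69.8, and 57.2 and 69.9 in the same order. IAA26 was at 58.4 and 53.8, 59.0 and 66.0, and 46.6 and 59.5. In these 4 genes the log2 difference between ion and control ran from -0.09 to 0.13. IAA8 was at 64.6 and 80.4 in control, 61.3 and 63.1 in nanoparticle and 74.5 and 83.1 RPKM in ion libraries. IAA13 was at 34.4 and 31.2, 32.4 and 33.8, and 31.8 and 47.0. IAA7 (AXR2) was at 21.9 and 20.6, 24.2 and 21.7, and 28.5 and 18.4, and IAA11 at 12.1 and 10.02, 10.12 and 13.9, and 10.12 and 13.2. None of these passed, and in IAA7, IAA11 and IAA13 the ion libraries enclosed or overlapped the control range. IAA14 (SOLITARY-ROOT, which blocks lateral root initiation when stabilised) was at 5.08 and 2.96, 6.36 and 5.03, and 4.66 and 4.50, and IAA10 at 5.01 and 4.54, 4.80 and 6.22, and 3.24 and 5.37.

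LBD16 and LBD29, transcription factors of lateral root initiation, did not pass in any comparison. LBD16 was at 7.50 and 4.63 in control, 6.30 and 7.003 in nanoparticle and 4.78 and 8.33 RPKM in ion libraries. LBD29 was at 3.38 and 0.838, 3.02 and 2.74, and 1.35 and 3.22 in the same order. Within control and within ion libraries, both genes differed between replicates by more than the group means differed. The log2 differences between ion and control were 0.09 ± 0.31 for LBD16 and 0.15 ± 0.45 for LBD29 (limma adjusted p = 0.863 and 0.835).

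**Figure D3:**
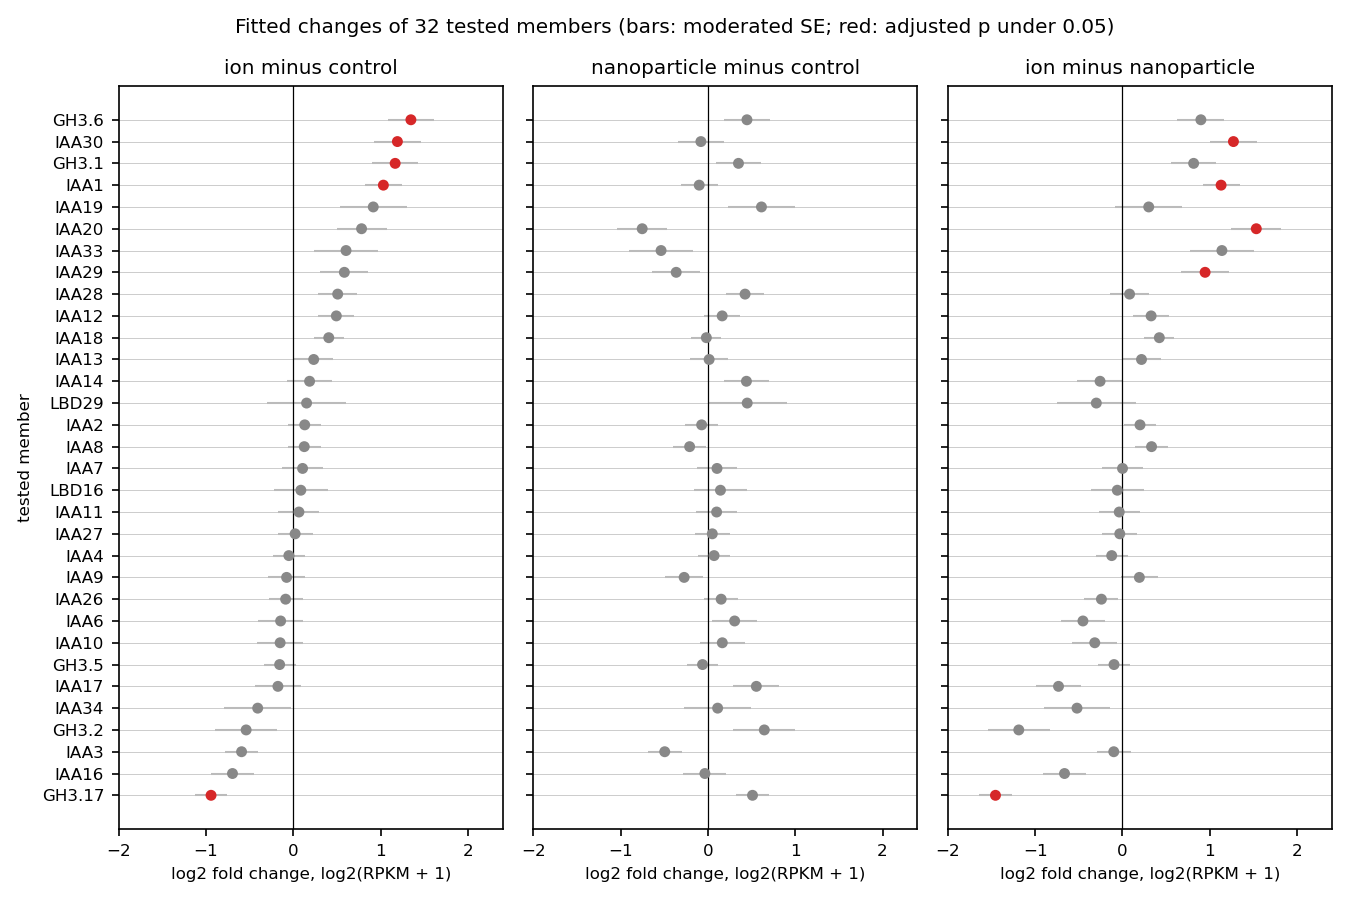
Log2 fold change on the log2(RPKM + 1) scale with its moderated standard error for the 32 tested loci, in panels for ion against control, nanoparticle against control and ion against nanoparticle; red marks a limma adjusted p under 0.05. Red points are 5 in the first panel, 0 in the second and 5 in the third.

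Nanoparticle-treated roots gave no passing difference from control. 0 of the 32 loci passed, as did 0 of all 19648 genes tested with limma (0%), and 3 loci had an unadjusted p under 0.05, against 6.65% of all genes. These were GH3.17, at 0.51 ± 0.19 on the log2 scale, IAA20, at -0.75 ± 0.29, and IAA3, at -0.49 ± 0.19. Each had a limma adjusted p of 0.595. Both nanoparticle libraries lay above both control libraries in 9 tested loci and below in 5, against 20.7% and 25.2% of all genes. The median log2 fold change was 0.1021 over the 32 loci and -0.0326 over all genes.

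The nanoparticle values of several loci depend on which control library they are set against. Without control replicate 1, IAA17 (0.93), IAA19 (1.15) and GH3.2 (1.19) passed, in a fit where 2069 genes were higher and 1452 lower. Without control replicate 2 none did. IAA17 was at 74.5 and 43.8 in control, 80.9 and 88.2 in nanoparticle and 49.2 and 51.7 RPKM in ion libraries. As in GH3.2 and IAA19, control replicate 2 was the lower control library. The ion and the nanoparticle comparison share the same control libraries, so their values are given side by side and not as separate evidence.

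Set directly against nanoparticle-treated roots, ion-treated roots differed in 5 of the 32 loci. IAA20 (AT2G46990), IAA30, IAA1 and IAA29 (AT4G32280) were higher and GH3.17 was lower. Over all genes 25.3% passed, 13.3% higher and 11.9% lower, so 15.62% of the loci is again not above the background. Both ion libraries stood above both nanoparticle libraries in 12 tested loci and below in 7, against 45.5% and 30.7% of all genes, and 12 had an unadjusted p under 0.05, against 39.3%. Fewer loci passed when any nanoparticle or ion library was left out, and more when either control library was. The number of all genes passing moved the same way. The median log2 fold change was -0.0146 over the loci and 0.1307 over all genes. Scaling by the median of gene ratios moved the median of all genes by -0.128 and turned the split of passing genes from 2622 higher and 2347 lower to 1941 higher and 2769 lower. Scaling to TPM moved the median of all genes in ion against control by -0.1005. None of the passing loci changed direction under either scaling.

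GH3.17 had the smallest adjusted p of the 32 loci, at a 2.82-fold lower level in ion-treated roots (log2 fold change -1.45 ± 0.19, limma adjusted p = 0.00269). It passed with each single library left out, at -1.30 to -1.61. IAA20 rose 4.3-fold (log2 fold change 1.53 ± 0.29, limma adjusted p = 0.0108), on 16 and 6 reads in nanoparticle and 45 in each ion library. Leaving out nanoparticle replicate 2, the lower of its pair, gave 1.16, ion replicate 1 gave 1.44 and ion replicate 2 gave 1.62, none of which passed. IAA30 rose 3.03-fold (1.27 ± 0.27, limma adjusted p = 0.0157), and at 0.99 without nanoparticle replicate 2 and 1.08 without ion replicate 1 it did not pass. IAA1 rose 2.43-fold (1.13 ± 0.21, limma adjusted p = 0.0108). It did not pass without nanoparticle replicate 1 (1.28), without nanoparticle replicate 2 (0.98) or without ion replicate 1 (1.02).

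IAA29, known as a target of the light and heat factors PIF4 and PIF5, was at 1.26 and 1.18 in control, 0.733 and 0.717 in nanoparticle and 3.201 and 1.63 RPKM in ion libraries. The 3 groups did not overlap, although no library had more than 39 reads. The difference between ion and nanoparticle passed (0.95 ± 0.27, limma adjusted p = 0.0459), and that between ion and control did not (0.58 ± 0.27, limma adjusted p = 0.167). It did not pass without either nanoparticle library (0.95 and 0.94) or without ion replicate 1 (0.61).

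Several loci lay close to the threshold in this comparison. GH3.2 was 2.44-fold lower in ion than in nanoparticle libraries (-1.19 ± 0.35, limma adjusted p = 0.05) and did not pass, by a narrow margin. It passed with a filter at RPKM 5 (-1.19), with median-of-ratios scaling (-1.31) and with TPM (-1.25). With no filter on low values IAA31 passed, at -0.67. GH3.6 was 0.90 ± 0.27 higher (limma adjusted p = 0.0501), GH3.1 0.82 ± 0.26 higher (limma adjusted p = 0.062) and IAA33 1.14 ± 0.37 higher (limma adjusted p = 0.0632). IAA17 was at -0.73 ± 0.26 (limma adjusted p = 0.085) and IAA16 at -0.66 ± 0.25 (limma adjusted p = 0.0924). Leaving out either control library left the fold changes of GH3.2, GH3.6, GH3.1, IAA33, IAA17 and IAA16 in place. Their calls changed in those fits, as did the number of all genes passing, and the cause was not tested.

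**Figure D4:**
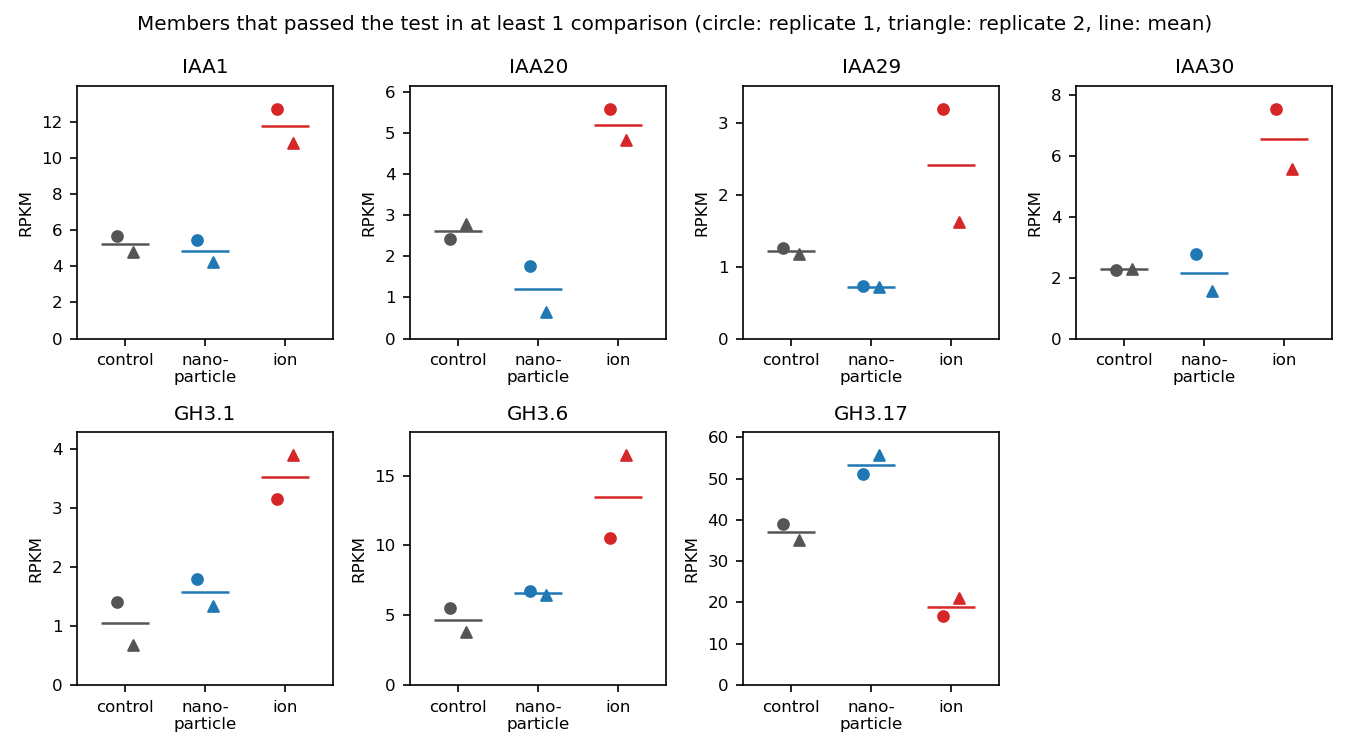
RPKM in each library of the 7 loci that passed in ion against control or ion against nanoparticle, with circles for replicate 1, triangles for replicate 2 and a line at the group mean. In IAA1, IAA30, IAA20, IAA29, GH3.1 and GH3.6 both ion libraries lie above the other 4, and in GH3.17 both lie below.

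Aux/IAA proteins fall into canonical members with the degron and members without it. The planned search of the annotated proteins for a degron core of 5 residues found it in 17 of the 29 loci. A search for its first 4 residues, chosen after the data were seen, added IAA8, IAA10, IAA11, IAA12, IAA13 and IAA27 and so found it in 23, but not in IAA20, IAA30, IAA31, IAA32, IAA33 and IAA34. Of these 6, IAA31 and IAA32 were too low to test. The 4 tested genes without the core had a median log2 fold change of 0.6919 in ion against control, -0.3083 in nanoparticle against control and 1.205 in ion against nanoparticle. The 21 tested genes with the core had medians of 0.1053, 0.07078 and 0.00111. In ion against control, 1 of the 4 (IAA30) and 1 of the 21 (IAA1) passed, against 22.6% of all genes. In ion against nanoparticle, 2 of the 4 (IAA20 and IAA30) and 2 of the 21 (IAA1 and IAA29) passed, against 25.3%. IAA33, which acts in the root tip, was at 4.42 and 2.14 in control, 2.52 and 1.30 in nanoparticle and 6.68 and 4.10 RPKM in ion libraries. IAA34 went against the other 3, at 1.36 and 0.393, 0.520 and 1.53, and 0.145 and 0.629 RPKM, from 1 to 12 reads. The split between these sets was not tested.

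Around these loci, 47 other genes of the auxin pathway were read from a list chosen with earlier results of these data known. Of these genes, 42 could be tested. In ion against control, 11 were higher and 1 lower (28.57% of 42, against 22.6% of all genes), and in ion against nanoparticle 10 were higher and 2 lower (28.57%, against 25.3%). In nanoparticle against control 0 passed by limma and 2 had an unadjusted p under 0.05. Leaving out 1 library at a time changed how many of the 42 passed in each comparison, and the share of all genes passing changed too. None of the 6 TIR1/AFB receptor genes and none of the 5 TOPLESS co-repressor genes passed in any comparison. TIR1 was at 74.7 and 68.6 in control and 61.5 and 49.0 RPKM in ion libraries. Of 15 ARF genes, 4 were higher in ion-treated roots than in control: ARF9, ARF11, ARF18 and ARF8. ARF9 rose from 27.2 ± 1.71 to 71.3 ± 13.5 RPKM (log2 fold change 1.35 ± 0.20, limma adjusted p = 0.00464). ARF11 rose by 1.01 ± 0.21, ARF18 by 0.68 ± 0.16 and ARF8 by 0.59 ± 0.17 on the log2 scale (limma adjusted p = 0.0172, 0.026 and 0.0489). ARF9, ARF11, ARF18 and ARF5 were higher in ion than in nanoparticle libraries, and all 4 calls ended without nanoparticle replicate 1 or 2, at 1.24 and 1.12, 1.03 and 1.15, 0.78 and 0.78, and 1.17 and 0.86. The call of ARF11 also ended without ion replicate 2, and those of ARF18 and ARF5 without either ion library. That of ARF5 ended as well with no filter, median-of-ratios scaling, TPM or a replicate block. It was kept in 6 of 14 alternatives, and that of ARF9 in 12 of 14.

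Of 4 GH3 enzymes outside the set, PBS3, which makes a precursor of salicylic acid, was at 0.419 and 0.407 in control, 0.624 and 0.574 in nanoparticle and 16.0 and 24.2 RPKM in ion libraries. It passed the filter on low values only through the ion libraries, where it is high, so its difference is given as a description, although it is among the 11 counted as higher. GH3.7 fell from 3.02 to 0.527 RPKM (-1.41 ± 0.22, limma adjusted p = 0.0066). Of 4 tested genes that inactivate auxin or release it outside the GH3 family, DAO2 and ILR1 rose against control. DAO2, a gene for an auxin oxidase, rose by 1.78 ± 0.28 on the log2 scale (limma adjusted p = 0.00664). ILR1, which frees auxin from its conjugates, rose by 0.59 ± 0.17 (limma adjusted p = 0.047). Of 8 tested lateral root and other early auxin genes, LRP1, PUCHI, TMO7 and HAT2 rose against control. Both ion libraries stood above both control libraries in 6 of the 8 and below in 2, against 34% and 27.7% of all genes. LBD18 was at 1.77 and 1.05 in control and 0.673 and 0.635 RPKM in ion libraries. GATA23 was at 1.65 and 1.05, and 0.259 and 0.894. Against nanoparticle GATA23 passed as lower (-1.13 ± 0.32, limma adjusted p = 0.0446), on 2 to 28 reads. That call ended with a pseudocount of 0.1, no filter or a replicate block, and without either nanoparticle library or either ion library. It was kept in 6 of 13 alternatives, with log2 fold changes from -2.03 to -0.82. LRP1, a gene of lateral root primordia, went from 6.83 and 3.33 in control to 26.2 and 28.9 RPKM in ion libraries (2.29 ± 0.29, limma adjusted p = 0.00288). PUCHI rose by 1.51 ± 0.26, TMO7, a direct target of MONOPTEROS, by 1.45 ± 0.25, and HAT2 by 0.60 ± 0.16 (limma adjusted p = 0.00926, 0.00852 and 0.0416). The calls of ARF8, ARF11, ARF18, ILR1, HAT2, PUCHI and TMO7 against control each ended when an ion library was left out, at 0.57 and 0.61, 1.13 and 0.89, 0.65 and 0.71, 0.66 and 0.52, 0.58 and 0.62, 1.40 and 1.62, and 1.53 and 1.37 without ion replicate 1 and 2. The calls of ARF8, ARF11, ARF18, ILR1 and HAT2 also ended without either nanoparticle library, which left their fold changes in place. Those of ARF8, ARF18, ILR1 and HAT2 ended as well with TPM, a replicate block, library weights or only the groups compared, and those of ARF8, ILR1 and HAT2 with median-of-ratios scaling. The call of ARF8 was kept in 4 of 14 alternatives, while those of ARF9, LRP1 and DAO2 were kept in all 14.

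Some root zone and tissue markers differed in the ion group as well, and others did not. In bulk roots, fewer cells of a type and less RNA per cell cannot be told apart. The 4 meristem markers (PLT1, PLT2, CYCB1;1 and PCNA1) summed to 37.2 and 46.9 in control, 37.8 and 32.2 in nanoparticle and 84.4 and 77.1 RPKM in ion libraries. Of these, 1 of 4 passed against control, where 22.6% of all genes did, and 4 of 4 against nanoparticle, where 25.3% did. The 3 xylem markers summed to 158 and 140, 127 and 127, and 46.0 and 41.4, and the 4 root hair markers to 27.8 and 12.3, 32.8 and 32.2, and 15.5 and 10.8. The xylem fall was in XCP1 and XCP2. The xylem gene VND7 was at 2.84 and 1.44 in control and 1.95 and 1.62 RPKM in ion libraries and did not pass. Within the root hair list the early regulator RHD6 was at 14.0 and 10.1 in ion libraries, above its control level of 6.71 and 6.63, while EXPA7 was at 0.629 and 0.340 against 14.2 and 2.97, COBL9 at 0.906 and 0.294 against 3.82 and 1.63, and RSL4 at 0 in both ion libraries. Root cap markers summed to 5.65 and 8.18, 6.16 and 5.19, and 5.10 and 7.89, with no gene passing. The 6 shoot markers summed to 107 and 127, 50.4 and 147, and 23.4 and 24.7, with STM and CAB3 at 0 in a library. The 6 root markers summed to 356 and 171, 421 and 454, and 251 and 232. Of these, 1 passed as higher and 1 as lower in ion against control, and 4 did not pass. WOX5 was the higher, at 1.56 and 1.85 in control and 4.22 and 5.33 RPKM in ion libraries. GL2 was the lower, at 9.88 and 7.14 in control and 4.69 and 3.44 in ion libraries. The part of these marker differences in the values of IAA1, IAA20, IAA29, IAA30, GH3.1, GH3.6 and GH3.17 was not tested.

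IAA3 and IAA17 lie side by side on chromosome 1, on opposite strands, with 6388 bases and 0 coding genes between them. IAA3 was highest in control and IAA17 highest in nanoparticle libraries, although neither gene passed the main test in any comparison. None of the 7 loci that passed overlaps another annotated gene. IAA3, IAA5, IAA9, IAA10, IAA11, IAA13, IAA27, IAA32 and GH3.9 overlap a gene on the opposite strand, and since strand handling is not stated in these sources, their levels may hold reads of that gene. IAA34 overlaps a gene on its own strand, and reads in the overlap may be of either gene.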

How the data were processed

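RNA was extracted from roots with Trizol and libraries were made with a NEBNext Ultra kit, per the labels' protocols. Per the submitters' processing notes, the tools were TopHat2 2.0.12 and HTSeq 0.6.0 and the build was TAIR10, with no roles stated. The authors deposited RPKM values for 24438 genes in 6 libraries, and strand handling is not given in the sources used here. In all 6 libraries, the values of 24434 genes were whole multiples of a read (tolerance 1e-06 reads), from which the library totals of 12318429 to 14489392 reads follow. Of the identifiers, 23678 matched RefSeq. Counting precision follows from those totals and covers counting error only.

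Log2(RPKM + 1) values, with a pseudocount of 1, were tested with limma 3.58.1 in R 4.3.3 for the 19648 genes whose RPKM reached 1 in 2 or more libraries. One fit held the 3 groups, with 3 residual and 3.806 prior degrees of freedom. Tests were two-sided, with Benjamini-Hochberg adjusted p under 0.05 over all genes tested as passed. This scale understates the change of low genes. Fold changes given as n-fold are ratios of mean RPKM. The code was tested on simulated data.

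The loci, the pathway and marker lists and the tests were chosen with earlier results of these data known. Named were each locus that passed in a comparison and up to 4 passing genes of a list. Upstream windows and annotated proteins came from TAIR10.1 of RefSeq, read with Biopython 1.88, and 1 window is not reported here. Alternatives were another pseudocount, other filters and scalings, a replicate block, library weights, fits of only the groups compared, and leaving out each library.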

Additional observations from a re-analysis of the deposited data

How the results depend on the processing

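With library weights, 2 loci passed in ion against control, where 14.8% of all genes did, and 12 in ion against nanoparticle, where 42.1% did. With only the groups compared in the fit, 11 passed in the latter, where 42% of all genes did. Leaving out 1 library at a time gave 1 to 9 loci in ion against control, 0 to 3 in nanoparticle against control and 1 to 11 in ion against nanoparticle. For the other auxin pathway genes it gave 4 to 18, 0 to 4 and 2 to 17. The cause was not tested. No locus or listed gene that passed changed direction under any alternative run. IAA1, IAA30 and GH3.1 did not pass against control with library weights, and IAA29 did not pass against nanoparticle with median-of-ratios scaling (0.87).

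With a replicate block, 5 loci passed in ion against control, 0 in nanoparticle against control and 5 in ion against nanoparticle, where IAA29 no longer passed and IAA33 did. Of the other pathway genes, 9, 0 and 10 passed. Of all genes, 19.0% passed in ion against control and 0 in nanoparticle against control. In ion against nanoparticle 2036 of 19648 genes were higher and 2007 lower. The deviations of same-numbered libraries correlated at -0.0541, -0.164 and 0.0755, so the numbers were not shown to pair the libraries. With 2 libraries a group and 6 to 45 reads behind IAA20, depth limits what the low loci can show.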
